A study of Mus musculus with 25 samples.

Results

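The 10 genes described here, Acta2, Myl9, Myh11, Sparc, Igfbp7, Mfap4, Tcf21, Bgn, Col1a2 and Tmsb4x, are transcripts of smooth muscle-like and connective tissue cells. They turned up in a single-cell RNA-seq data set of sorted mouse testis cells. The set was put together with earlier results of these data known. Among 14103 measured genes, the authors' deposited table of normalized dispersion, a measure of how far a gene varies between cells beyond what its mean predicts, gives them ranks 1 (Acta2), 2 (Myl9), 3 (Sparc), 4 (Mfap4), 6 (Col1a2), 7 (Igfbp7), 8 (Myh11), 10 (Tmsb4x), 11 (Bgn) and 13 (Tcf21). These ranks are a description and support nothing further. The cells were sorted for a 4N DNA content, which cycling cells have after replication and germ cells keep through meiotic prophase, and came from mouse testis at postnatal day 10, from 1 wild-type (WT) library of 1151 cells and 2 Ythdc2 knockout (KO) libraries, KO A with 1522 cells and KO B with 1855. YTHDC2, an RNA helicase with an RNA-reading YTH domain, is a protein that germ cells need for meiosis. The labels describe the KO samples as a knockout line and name no tissue-restricted deletion; their titles also carry the word embryo, and the age label was followed. Bulk RNA-seq of mutant testes and iCLIP samples of the same series were not analysed here.

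Seminiferous tubules, in which sperm form, are wrapped by flat peritubular myoid cells. These contract through the same proteins as smooth muscle: Acta2 encodes smooth muscle alpha-actin, Myh11 the smooth muscle myosin heavy chain and Myl9 a regulatory light chain of myosin. Myoid and other stromal cells also build the matrix around the tubule, to which Col1a2 (a chain of type I collagen), Sparc (a collagen-binding matrix protein), Bgn (the proteoglycan biglycan), Mfap4 (a microfibril-associated glycoprotein) and Igfbp7 (a secreted binding protein of insulin-like growth factors) belong. Tcf21 is a transcription factor of mesenchymal cells, and Tmsb4x encodes thymosin beta 4, which binds actin monomers and is abundant in many somatic cells, leukocytes among them.

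On the mouse assembly GRCm38.p6, RefSeq places Acta2 at chr19:34240336-34255585, Myl9 at chr2:156775408-156781657, Sparc at chr11:55394159-55420080 and Tmsb4x at chrX:167207093-167213479. The 10 genes lie on 8 chromosomes. Many smooth muscle genes carry a CArG box, a pair of C and a pair of G around 6 bases that are each A or T, to which serum response factor binds. The RefSeq promoter table held 8 of the 10 genes (not Myh11 or Mfap4). In the 250 bases before the start which that table gives, only Myl9 had such a box, against 1.47% of all 32851 promoters of that length. For Tmsb4x this window lies inside the annotated gene, and for Acta2 only 38 of its bases lie before the annotated gene. Only the exact pattern was searched, so boxes with a differing letter were not counted. The pattern reads the same on both strands. The bases before the annotated starts of Myl9 (chr2:156775214-156775407, + strand) and Sparc (chr11:55420081-55420330, - strand) are shown because, cell by cell, these were the 2 genes that followed the summed level of the set most closely. Both are written 5′ to 3′ on the strand of the gene, with the box in capitals.
Myl9: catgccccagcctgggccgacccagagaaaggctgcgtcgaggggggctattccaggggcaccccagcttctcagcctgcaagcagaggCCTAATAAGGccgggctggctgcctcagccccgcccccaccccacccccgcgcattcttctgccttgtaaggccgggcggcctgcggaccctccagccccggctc
Sparc: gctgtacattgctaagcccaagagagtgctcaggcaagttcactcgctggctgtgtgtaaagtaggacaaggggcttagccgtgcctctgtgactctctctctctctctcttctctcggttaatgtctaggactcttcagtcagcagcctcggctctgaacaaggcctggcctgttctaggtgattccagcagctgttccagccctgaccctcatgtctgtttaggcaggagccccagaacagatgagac
The Myl9 box starts 105 bases before the annotated start of the gene. A match is a description of the letters and not a binding site shown in these cells, and the absence of one says only that these letters are not in this window.

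The transcripts were packed into very few cells. With Tmsb4x set aside, 4208 of 4528 cells held no UMI (a unique molecular identifier, 1 per captured RNA molecule) of the other 9 genes, 271 held 1 of the 9, 11 held 2 and 5 held 3. No cell held 4 to 7 of them, and then 2 cells held 8 and 31 cells held all 9. These 33 cells, called carriers here, had 90 to 696 UMIs of the 9 genes (median 400), or 0.880% to 4.03% of all their UMIs. Of the 13189 UMIs of the 9 genes in the whole data set, 12673 (96.1%) lay in the 33 carriers. The WT library had 10 carriers, KO A 10 and KO B 13. A looser rule, at least 10 UMIs over the 9 genes and at least 3 of the 9 detected, added 2 cells of KO B and gave 35, and the tests below used its members in cluster 1.

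All 33 carriers stood in the authors' cluster 1, which their table names undifferentiated spermatogonia, the germ cells that include the stem cells. Under the looser rule, carriers made up 10 of the 45 cells of cluster 1 in WT (22.2%, 95% exact binomial interval 11.2 to 37.1), 10 of 66 in KO A (15.2%, 7.51 to 26.1) and 14 of 90 in KO B (15.6%, 8.77 to 24.7). The intervals overlap widely, cover counting error only and follow a sort for 4N DNA content, which sets which somatic cells could enter. As shares of all cells, the values were 0.869%, 0.657% and 0.809%. A comparison of 1 WT library with 2 KO libraries cannot reach an exact permutation p under 0.333, so no test of the shares was made.

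**Figure D1:**
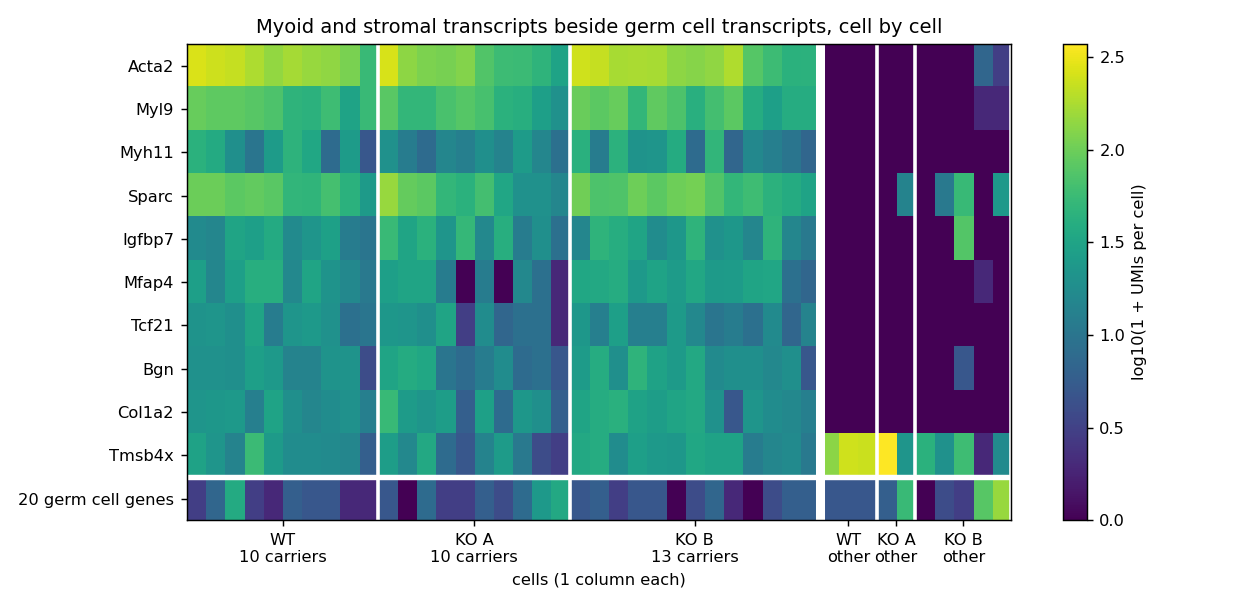
Each column is 1 cell, each of the upper 10 rows 1 gene and the lowest row the sum of 20 germ cell genes, coloured by log10(1 + UMIs). The 33 carriers on the left hold nearly all of the genes and few germ cell UMIs, while 10 further cells on the right, which have at least 5 UMIs of the 9 genes or at least 10 of Tmsb4x, hold only a few of the 10 genes.

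The contractile genes came first. Acta2 had 54 to 263 UMIs per carrier in WT (median 157.5, 10 cells), 30 to 261 in KO A (median 92.5, 10 cells) and 43 to 244 in KO B (median 139, 13 cells). In the other 161 cells of cluster 1 with fewer than 10 Tmsb4x UMIs, Acta2 had 0 UMIs. Set against a floor of 3 counts over those cells, its pooled level in carriers, 9595 CPM (UMIs per 1000000 UMIs of those cells), was at least 11935-fold higher. Of 4488 Acta2 UMIs in all, 4459 (99.4%) were in carriers.

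Myl9 had 30 to 94 UMIs per carrier in WT (median 64.5), 19 to 81 in KO A (median 50.0) and 27 to 95 in KO B (median 62). Myh11 had 4 to 45 in WT (median 25), 7 to 25 in KO A (median 13.5) and 6 to 48 in KO B (median 15). The 3 libraries overlap cell by cell for both genes, with the WT median the highest. The carriers held 96.6% of all Myl9 UMIs and 98.4% of all Myh11 UMIs.

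Sparc had 24 to 98 UMIs per carrier in WT (median 72.5), 14 to 148 in KO A (median 46) and 30 to 106 in KO B (median 72). Col1a2 had 12 to 30 in WT (median 18.5), 5 to 53 in KO A (median 21.5) and 4 to 42 in KO B (median 26). For Col1a2 the WT median was the lowest of the 3, whereas for Acta2 it was the highest, and the cells of the 3 libraries overlap. Bgn had medians of 19, 10.0 and 18 UMIs in WT, KO A and KO B, Igfbp7 of 18.5, 26 and 22, and Mfap4 of 23.5, 11.0 and 30.0. Col1a2 was at 0 UMIs in the other 161 cells of cluster 1, where Igfbp7 had 3, Mfap4 2 and Bgn 4. Carriers held 91.2% of Sparc, 96.5% of Col1a2, 96.0% of Bgn, 87.7% of Igfbp7 and 96.9% of Mfap4 UMIs.

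Tcf21, the transcription factor of the set, was found in all 33 carriers, with medians of 19.5, 12.5 and 12 UMIs in WT, KO A and KO B. Only 3 of its 505 UMIs were elsewhere, each in a different cell and none in cluster 1. Mfap4 was the 1 gene of the 9 that a carrier could lack: 2 KO A carriers had 0 UMIs of it. The same 2 cells held 19 and 23 UMIs of Tagln (transgelin, a smooth muscle actin-binding protein), 7 and 0 of Col1a1 and 6 and 2 of Tcf21. Among the other 8 KO A carriers Tagln reached 13.

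**Figure D2:**
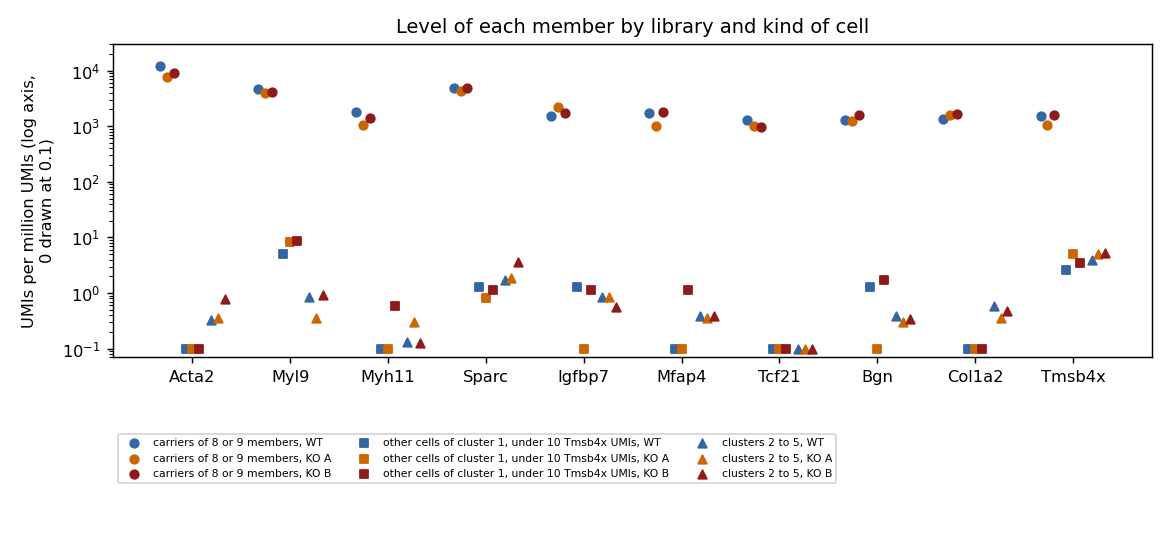
CPM (log axis, 0 drawn at 0.1) of each gene in carriers, in other cells of cluster 1 with under 10 Tmsb4x UMIs and in clusters 2 to 5, with 1 point per library. In carriers the points lie between 961 (Tcf21, KO B) and 12076 (Acta2, WT), and elsewhere they stay below 10.

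Within the carriers the 10 genes did not rise and fall as one. Over the 33 cells, Pearson correlations of the 45 pairs of log levels ran from -0.20 (Myh11 with Igfbp7) to 0.75 (Acta2 with Sparc), with a median of 0.37. These cells share 3 libraries and differ in depth, so the values are a description. Over all 4528 cells, the genes outside the set whose levels were most like its sum, among 13754 genes compared, were Cald1 (caldesmon, 0.91), Tshz2 (0.91), Pdlim3 (0.91), Sparcl1 (0.90), Col3a1 (0.90), Col4a1 (0.90), Col4a2 (0.90), Col6a1 (0.90), Serpinh1 (a collagen chaperone, 0.90) and Col4a3 (0.89). Tmsb4x itself stood at 0.71, rank 144 in that order.

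The carriers were nearly empty of germ cell transcripts. Over 20 germ cell genes fixed as a list, they held 0 to 36 UMIs (median 4), and 3 carriers held 0. The other 161 cells of cluster 1 with fewer than 10 Tmsb4x UMIs held 27 to 304 (median 98). Over all 167 cells of cluster 1 that were no carriers under the looser rule, the range was 0 to 304 (median 97). Dazl, an RNA-binding protein of all germ cells at this stage, had 28 UMIs in 13 of the 33 carriers and 4219 UMIs in 161 of the 161 others, a pooled level 18.8-fold lower in carriers. Ddx4, the germ cell helicase VASA, had 4 UMIs against 1111 (34.6-fold lower), and Uchl1, a deubiquitinase of spermatogonia, 5 against 3922 (97.7-fold lower). Of 16 measured genes of undifferentiated spermatogonia, 11 were at 0 UMIs in the carriers, and the other 5 summed to 26 UMIs. Among the 11, Gfra1 and Ret, the receptor pair for GDNF on stem cells, had 0 UMIs against 233 and 404. Sall4 had 0 against 434. With a floor of 3 counts these levels were at least 9.67-fold, 16.8-fold and 18-fold lower. Kit (0 against 146) and Sohlh1 (0 against 704) were the only 2 at 0 of 10 genes that mark differentiating spermatogonia. The other 8 summed to 71 UMIs. For these 33 cells the values go against the cluster's name.

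A few carriers held more germ cell RNA than the rest. Per 10000 UMIs, the germ cell list stood at 17.8 in 1 WT carrier, at 34.2 and 27.1 in 2 KO A carriers and at 6.38 or less in the other 30. The 161 other cells of cluster 1 with fewer than 10 Tmsb4x UMIs ranged from 25.5 to 87.7 (median 47.9). Thus 2 carriers reached into their range. Those 2 KO A carriers had the lowest sums of the 9 genes in their library, 90 and 166 UMIs, and the highest mitochondrial shares of all carriers, 9.84% and 10.1%, against a median of 2.78%. The WT carrier held 523 UMIs of the 9 genes, 52 UMIs of a list of 19 meiotic prophase genes and 7 of Sycp3, a protein of the meiotic chromosome axis. The doublet caller marked none of the 33 carriers. It marked 20 of 4528 cells (0.442%), a low share.

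**Figure D3:**
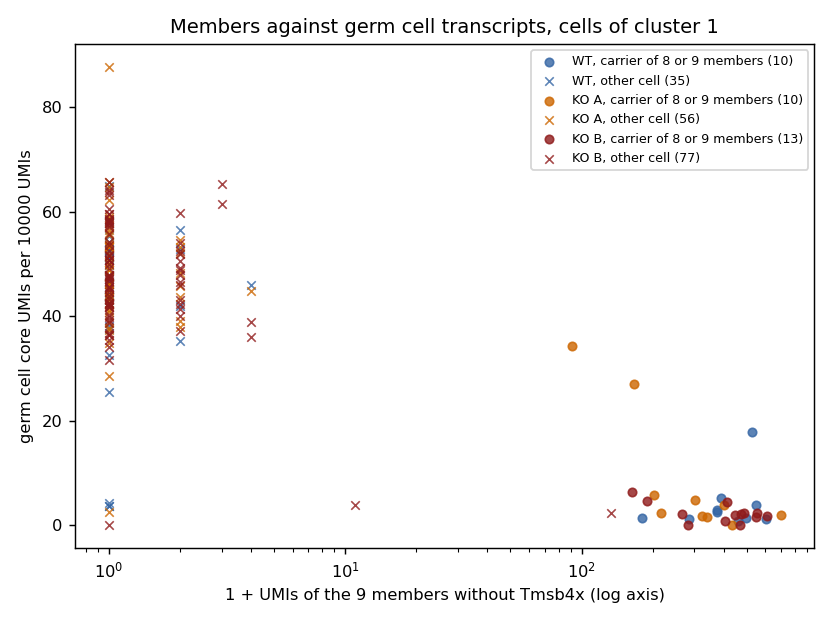
Each point is a cell of cluster 1, with 1 + UMIs of the 9 genes on a log axis against the UMIs of 20 germ cell genes per 10000 UMIs. Carriers (circles) lie at the lower right, apart from 1 WT cell at 17.8 and 2 KO A cells at 27.1 and 34.2, and 2 KO B cells with 10 and 132 UMIs of the 9 genes (crosses) lie at the bottom.

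What else the carriers expressed was tested with genes that did not choose them. Mean levels in the 34 carriers of cluster 1 were set against those in the other 167 cells of the cluster within each of the 3 libraries, with the library as a block, in limma with Benjamini-Hochberg adjustment over all 8108 genes tested. At adjusted p under 0.05, 2151 genes (26.5%) were higher and 2116 (26.1%) lower in carriers, with a median log2 difference of -0.06 over all genes. The 10 genes of the set are left out of what follows, since they define the carriers. So large a background means that a list's counts have to be read beside these shares. The filter kept genes with a mean of at least 0.2 size-factor-scaled UMIs over both classes, so a gene abundant in 1 class could pass through that class alone and then had to differ. The counts for myoid, regulator, matrix and germ cell lists are therefore over all measured genes in the fit with no filter, where 2229 of 13890 genes (16%) were higher and 3151 (22.7%) lower. Single genes have their values from the filtered fit. Genes near 0 in the other cells, among them Tpm2, Tagln, Nr2f2 and Eln, passed through carriers alone. Their adjusted p-values describe the size of the difference and are no test of it.

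Contractile genes were higher. Of 18 further genes of myoid and smooth muscle cells, 16 were higher in carriers and 0 lower. Of the 16 that passed the filter on low values, 11 did so through carriers alone. Tpm2, a tropomyosin, was at 1286, 1094 and 1388 CPM in carriers of WT, KO A and KO B and at 1.13 to 2.44 in the other cells (log2 difference 6.98 ± 0.22 SE, n = 3 libraries, limma adjusted p = 1.79e-10). Mylk, the kinase that switches smooth muscle myosin on, was at 1460, 1283 and 1324 against 13.0 to 18.7 (5.95 ± 0.19, limma adjusted p = 1.94e-10). Every library showed the same direction for both. Tagln was at 356, 506 and 581 CPM against 0 to 3.67 (log2 difference 5.75 ± 0.30, limma adjusted p = 1.17e-08), and Cnn1 (calponin) had 92 UMIs in 27 of the 33 carriers and 0 in the 161 other cells.

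Of 9 measured regulators of muscle genes, from a list of 11, 6 were higher and 0 lower. Of the 8 that passed the filter, 5 did so through carriers alone. Nr2f2, a nuclear receptor of mesenchymal cells, was at 836, 981 and 846 CPM against 1.13 to 1.62 (log2 difference 6.61 ± 0.22, limma adjusted p = 2.61e-10). Myocd, the myocardin coactivator of smooth muscle genes, had only 32 UMIs, in 18 of 33 carriers, against 1 UMI in the 161 others. Srf, serum response factor, did not pass, at a log2 of 0.24 ± 0.34 (limma adjusted p = 0.564).

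Matrix and stromal genes were higher as well. Of the 28 measured genes of a list of 32, 27 were higher and 0 lower, and 22 passed the filter through carriers alone. Eln (elastin) was at 1562, 1638 and 1895 CPM in carriers and at 0 to 2.44 in the other cells (7.69 ± 0.21, limma adjusted p = 7.44e-11). Col1a1 was at 1112, 1449 and 1166 against 6.11 to 20.4 (6.02 ± 0.21, limma adjusted p = 3.07e-10). Col3a1 had 295 UMIs, at least 1 in each of the 33 carriers, and 0 in the 161 others. Pdgfra, a growth factor receptor of stromal cells, was higher by 4.81 ± 0.28 (limma adjusted p = 3.62e-08).

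Beyond the lists, the fixed rule also named Fgl2 (492 UMIs in carriers and 0 in the 161 others), Col4a4, a basement membrane collagen chain (650 and 0), and the immediate early genes Fos and Jun. Fos was at 1744, 1683 and 2426 CPM against 55.2 to 84.3 (log2 difference 4.61 ± 0.15, limma adjusted p = 1.94e-10), and Jun at 2420, 2407 and 2421 against 90.1 to 119.9 (4.44 ± 0.15, limma adjusted p = 3.33e-10).

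Germ cell lists were lower. Of the 20 germ cell genes, 20 were lower. Of 16 measured genes of undifferentiated spermatogonia 14 were lower, and of 10 of differentiating spermatogonia 8, with 0 higher in either list. The filter left out 8 of the 16 and 2 of the 10, and of the 8 it kept in each list 7 and 5 passed through the other cells alone. Among 19 genes of meiotic prophase 11 were lower and 0 higher. In the filtered fit Rad51ap2 was called higher (log2 difference 1.10, limma adjusted p = 0.0251), a call that DESeq2 and the fit with no filter did not make. The genes that the rule named lowest were Uchl1, Rcc2, Isyna1, Tuba3a, Hells, Mt1, Mt2, Rpl39l, Mageb4 and D10Wsu102e. Rcc2 fell by 3.62 on the log2 scale (limma adjusted p = 1.07e-08) and the metallothionein Mt2 by 4.18 (limma adjusted p = 6.61e-08). Mageb4 had 0 UMIs in carriers and 1065 in the 161 others.

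Genes of cell division were higher: 13 of 15 genes of M phase, with a median log2 difference of 1.37, and all 15 passed the filter in both classes. Mki67 was at 1221, 1011 and 1220 CPM in carriers against 286.6 to 379.0 in the other cells (1.87 ± 0.16, limma adjusted p = 9.32e-07), and Cdk1, the mitotic kinase, at 697.5, 664.1 and 723.4 against 150.2 to 171.1 (2.19 ± 0.17, limma adjusted p = 3.64e-07). The summed list stood at 10456 CPM in the 33 carriers, 4730 in the other cells of cluster 1 and 7972 in cluster 2. Of the 33 carriers, 31 held 78 to 277 M phase UMIs and 2 held 1 and 2. Those 2 cells, both of KO B, also had the most Tagln, 38 and 33 UMIs, against 0 to 23 in the other 31. The sort took cells with a 4N content, and its part in these counts was not tested.

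Of 8 broad actin cytoskeleton genes, which all cells use, 5 were higher (Actb by 1.47 ± 0.13, limma adjusted p = 1.08e-06) and 2, Tmsb10 and Arpc3, lower, of which Tmsb10 was not called with no filter. The other cells included 3 WT cells and 1 KO A cell high in Tmsb4x, with 297 to 614 UMIs of this list. In KO B, 2 cells with 10 or more Tmsb4x UMIs held 241 and 30. The median over all 167 other cells was 102 UMIs.

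Markers of the other somatic cells were at low counts in carriers. Of 11 measured Sertoli cell genes, Sox9, Rhox8, Wt1, Amhr2 and Cldn11 were at 0 UMIs in the 33 carriers. The whole list summed to 2 to 14 UMIs a carrier (median 6), and to 0 to 20 (median 4) in the 161 other cells, so it was not lower in carriers. Aard, at 125 UMIs in 31 carriers, and Kitl were the 2 of the 4 tested that rose (limma adjusted p = 3.86e-05 and 2.58e-05), and Ctsl, a protease of many cells, fell by 0.69 on the log2 scale (limma adjusted p = 0.0156). Of the 2 that rose, 1 passed the filter through carriers alone, so its adjusted p is no test. The fit also held 1 KO B cell outside the 33 carriers, with 6 Kitl UMIs. Of 5 measured endothelial genes, from a list of 10, Pecam1 and Tie1 were at 0 in the 33 carriers. That list summed to 19 UMIs in these 33. Its gene Esam was called higher in the fit of 34 carriers, where it passed the filter through carriers alone. The KO B cell of that fit outside the 33 held 7 Esam UMIs and 17 UMIs of the whole list. Of 3 measured Leydig cell genes, from a list of 10, Star was at 0 and the list summed to 34 UMIs. The 2 measured globins were at 0, and 4 macrophage genes summed to 5 UMIs. Carriers had a median of 13919 UMIs against 20049 in the 161 other cells, and a median mitochondrial share of 2.78% against 7.46%. Ythdc2 itself had 4 UMIs in 3 of the 33 carriers.

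**Figure D4:**
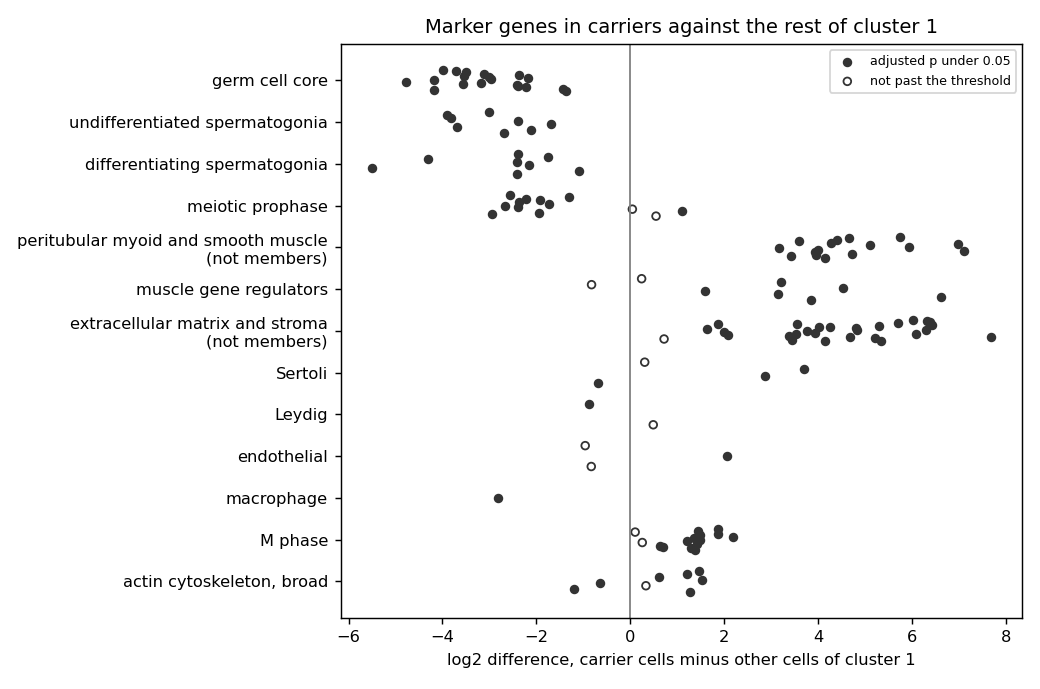
Each point is a gene of a list that passed the filter, placed by its log2 difference between carriers and other cells of cluster 1, filled where the limma adjusted p was under 0.05. The myoid and stromal lists lie to the right of 0 and the germ cell list to the left, and the genes that passed through 1 class alone (11 of 16 myoid, 22 of 28 stromal and 12 of 19 germ cell genes) had to lie on that side.

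Outside the carriers the genes of the set were sparse and in another proportion. Clusters 2 to 5, with 4327 cells, held 331 UMIs of the 9 genes. Acta2 was found in 23 of these cells (0.532%), Sparc in 92 (2.13%) and Tcf21 in 3 (0.0693%), at a median depth of 11149 UMIs. Carriers had 2.07 Acta2 UMIs for each Sparc UMI, and clusters 2 to 5 had 0.204. Sparc alone made up 42.9% of the 331 UMIs. Cells with several Sparc UMIs often held Sertoli cell transcripts, and the more numerous cells with 1 seldom did: of the cells outside cluster 1 with 2 or more Sparc UMIs, 9 of 16 (56.2%) had at least 10 UMIs of the Sertoli list, against 3 of 76 with 1 Sparc UMI (3.95%) and 13 of 4235 with none (0.307%). Sertoli cells, the nurse cells of the tubule, are known to secrete SPARC.

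Myl9 was the exception within cluster 1. The 161 other cells there had 29 Myl9 UMIs, in 22 cells (13.7%), against 41 UMIs in 37 of 4327 cells (0.855%) in clusters 2 to 5. Thinned to 3000 UMIs a cell, with no cell left out, the shares were 3.73% and 0.139%. The pooled level was 7.77 CPM (95% exact Poisson interval 5.20 to 11.2, counting error only) against 0.738 (0.529 to 1.00). By library it was 5.09, 8.25 and 8.65 in WT, KO A and KO B against 0.845, 0.359 and 0.937, so the difference had the same direction in 3 of 3 libraries, with intervals that touch in WT (1.39 to 13.0 against 0.450 to 1.44). Acta2 had 0 UMIs in the same 161 cells.

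The few cells outside the 33 carriers with at least 5 UMIs of the 9 genes each held 1 to 3 of them. Most of these few cells also held other somatic transcripts. The genes named in them were chosen after their values were seen. A KO B cell of cluster 1 held 53 Sparc, 75 Igfbp7, 4 Bgn and 58 Tmsb4x UMIs, with Acta2 and Myl9 at 0 and with 18 UMIs of Eng, 16 of Cd34 and 6 of Tie1, all known from endothelial cells. Another KO B cell of cluster 1 held 10 Sparc UMIs, 194 UMIs of the Sertoli list and 3 of the germ cell list. In cluster 5 a KO B cell held 23 Sparc, 2 Acta2 and 1 Myl9 UMIs with 236 UMIs of the Sertoli list and also 149 of the germ cell list, 32 of them Dazl. In cluster 4 a KO A cell held 13 Sparc UMIs with 107 of the Sertoli list and 54 of the germ cell list. These last 2 cells held Sertoli and germ cell transcripts together. Another KO B cell, of cluster 4, held 6 Acta2, 1 Myl9 and 1 Mfap4 UMIs with 79 UMIs of the germ cell list, 17 of them Dazl, and 2 of the Sertoli list, and had Tagln, Col1a1 and Col3a1 at 0.

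Tmsb4x parted from the other 9. Only 655 of its 2037 UMIs (32.2%) lay in the 33 carriers, although each carrier held 2 to 55 of them. In WT, 606 of the 819 Tmsb4x UMIs of cluster 1 (74.0%) lay in 3 cells with 133, 233 and 240 UMIs, and in KO A 372 of 518 (71.8%) lay in 1 cell. These 4 cells held 0 UMIs of the other 9 genes. They had 14 to 52 UMIs of Fcer1g, 22 to 42 of Coro1a, 8 to 13 of Lcp1 and 10 to 14 of Srgn, genes of leukocytes chosen after their values were seen, and 4 to 5 UMIs of the germ cell list. In KO B no cell passed 58, and 304 of 430 UMIs (70.7%) were in the 13 carriers. A KO B cell with 43 Tmsb4x UMIs held 28 of Ebf1, 18 of Cd79a and 9 of Vpreb1, genes of the B cell lineage. The other 161 cells of cluster 1 held 14 Tmsb4x UMIs in all.

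**Figure D5:**
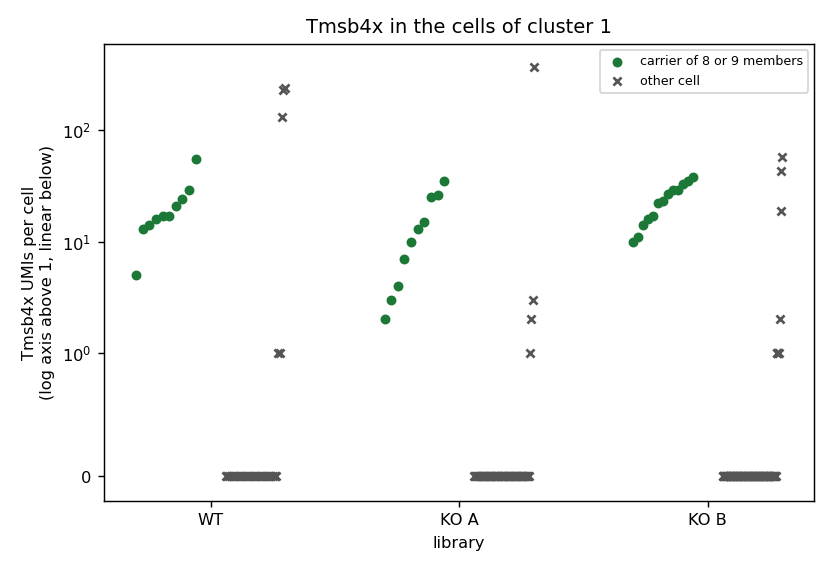
Tmsb4x UMIs of each cell of cluster 1 by library, on an axis that is logarithmic above 1. Carriers (circles) hold 2 to 55 UMIs, and 3 WT cells and 1 KO A cell that are no carriers hold 133 to 372.

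The study's own contrast is KO against WT, given here first for cluster 1. Pooled over cluster 1, Acta2 stood at 1739 CPM (WT), 738 (KO A) and 908 (KO B), and Myh11 at 256, 103 and 142. Tcf21 stood at 189, 98.2 and 94.9, and Igfbp7 at 220, 214 and 212. On this pooled scale the WT value was above both KO values for each of the 10 genes. On the size-factor-scaled means that were tested, Igfbp7 averaged 4.60 UMIs a cell (WT), 4.18 (KO A) and 4.65 (KO B), so KO B was above WT. In limma, 443 of 7863 genes (5.63%) were called, 103 (1.31%) higher and 340 (4.32%) lower in KO; with TMM scaling 308 (3.92%) were called, 130 higher and 178 lower. The fit has 1 residual degree of freedom, from the 2 KO libraries, and 51.4 prior degrees of freedom borrowed from the spread of all genes. Its p-values therefore rest almost wholly on that borrowed spread, and no exact permutation over these 3 libraries can give a p under 0.333. On those terms limma called 8 of the 9 genes lower in KO: Acta2 by a log2 of -1.21 ± 0.21 (SE, limma adjusted p = 5.02e-05), Myh11 by -1.18 ± 0.15 (1.28e-07), Mfap4 by -1.05 ± 0.18 (6.33e-05), Tcf21 by -1.03 ± 0.15 (1.39e-06), Myl9 by -0.83 ± 0.16 (0.000461), Sparc by -0.71 ± 0.17 (0.00677), Bgn by -0.59 ± 0.16 (0.0154) and Col1a2 by -0.48 ± 0.15 (0.0388). Igfbp7 did not pass (-0.06 ± 0.15, limma adjusted p = 0.888). Most UMIs of these 9 genes lie in the same few carriers, so the 8 calls are not independent of each other. Tmsb4x, at -2.09, is a description, since its KO against WT difference in these libraries was known when the set was made.

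Carriers are defined by these 9 genes, so leaving them out empties the genes by construction: the 9 then fell below the filter in cluster 1 and were not tested. Of the genes tested without carriers, 398 (5.39%) were called. Within carriers, where the WT mean of Acta2 was 164 size-factor-scaled UMIs a cell and the KO means were 92.4 (KO A) and 113 (KO B), none of the 10 genes passed: the log2 differences ran from -0.68 ± 0.42 (Myh11) to 0.47 ± 0.43 (Igfbp7), with limma adjusted p of 0.898 to 0.991, and 11 of 7671 genes (0.143%) were called. A p that misses the threshold does not show that carriers of both genotypes were alike. The share of carriers in cluster 1, 22.2% for WT against 15.2% and 15.6%, moves in the same direction as the 8 calls, and its part in them was not tested. For Tmsb4x in cluster 1, leaving out carriers gave -3.44, and leaving out also the cells with 10 or more of its UMIs took it below the filter.

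Over all cells, 1429 of 9637 genes (14.8%) were lower in KO, and of the 9 genes Acta2 (-0.96 ± 0.14, limma adjusted p = 8.12e-06), Myh11 (-0.92 ± 0.19, 0.000483), Mfap4 (-0.78 ± 0.24, 0.0125), Tcf21 (-0.77 ± 0.18, 0.00213), Myl9 (-0.59 ± 0.13, 0.00119) and Sparc (-0.45 ± 0.16, 0.0316) were lower. Bgn (-0.35), Col1a2 (-0.27) and Igfbp7 (0.13) did not pass. Tmsb4x, at -1.63, is again a description. This contrast also has 1 WT library. DESeq2 called Acta2 alone of the 10 genes in cluster 1 (0.0382% of genes called) and over all cells (12.6%), edgeR called 7 in cluster 1 (1.79%; not Bgn, Col1a2 or Igfbp7), limma with TMM scaling did not call Col1a2 there, and with no filter on low values limma called none of them in cluster 1. Over all cells edgeR called neither Sparc nor Mfap4, and limma with TMM scaling did not call Sparc. The labels do not say whether the KO libraries came from separate animals, so these p-values measure the spread between libraries.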

How the data were processed

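Single-cell libraries were made from sorted 4N testis cells at postnatal day 10. The submitters' processing notes name Cell Ranger 3.0.2, Scanpy and the build mm10 (GRCm38). In the deposited matrix each value is the natural log of 1 + count/size factor. Undoing both steps gave whole numbers, within 0.001, for 100% of the values above 0. A deposited table of cells lists library, cluster, size factor (a score), UMI and gene count, and mitochondrial fraction, as the authors computed them. Every cell held at least 3000 genes, and 0 cell barcodes were shared between libraries. Total counts were 16352670 (WT), 18102156 (KO A) and 25460154 (KO B) UMIs. The 2 KO libraries could not be tied to a particular KO sample.

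The genes and marker lists were chosen with earlier results of these data known. Means of count/size factor per library and class were tested on log2(mean + 0.1) within cluster 1 (mean at least 0.2) and log2(mean + 0.01) over all cells (mean at least 0.05), which understates the change of low genes, with limma 3.58.1 (eBayes with trend), after tests on simulated data. edgeR 4.0.16 and DESeq2 1.42.0 on recovered counts were alternatives. Genes named outside the set are list members and, in carriers against other cells, the 10 higher and 10 lower called genes of smallest p (log2 difference of 1 or more either way, at least 10 CPM, same direction in all libraries, members and predicted genes left out), plus the 10 most correlated with the sum of the 9 genes. Scrublet, run through Scanpy per library, called doublets, which were kept. Some genes that the rule or the lists name are not reported here.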

Additional observations from a re-analysis of the deposited data

How the results depend on the processing

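The number of carriers under the looser rule was 35 and stayed at 33 to 36 over 6 other settings (UMI minimum of 5 or 20, at least 5 genes, Tmsb4x counted, thinning, no doublets). In carriers against the other cells of cluster 1, 4267 genes were called; a minimum mean of 1, which tests fewer genes, gave 1761, leaving out each library in turn gave 3260 to 3991, and the fit with no replicate block (libraries not paired) gave 4231. Srf, which did not pass, ranged from -0.16 (without KO A) to 0.57 (without WT). In KO against WT within cluster 1, 443 genes were called: 262 with a minimum mean of 1, 1 with no minimum (1722 at unadjusted p under 0.05), 141 with edgeR and 3 with DESeq2. Alternatives chosen after seeing the data gave 173 without carriers and cells with 10 or more Tmsb4x UMIs, and 11 in carriers only; the cause of these shifts was not tested. edgeR called 7 and limma with TMM scaling 8 of the 10 genes lower. In carriers only, Igfbp7 was at 0.47 and Col1a2 at 0.041. Igfbp7 in cluster 1 was at 0.016 without KO A and -0.14 without KO B, and over all cells at 0.26 and -0.000979, so its direction depended on the KO library. All Igfbp7 values here that use KO B include 1 cell with 75 Igfbp7 UMIs that was not among the 33 carriers. Its part in them was not tested. Over all cells, 3188 genes were called and 1212 with DESeq2. In cluster 1, 201 cells limit every level, and with 1 WT library the spread comes from the 2 KO libraries. No paired analysis of KO against WT was possible because there is 1 WT library.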
